A study of Mus musculus with 12 samples.

Results

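The endothelial genes Kdr, Flt1, Tek, Tie1, Cdh5, Cldn5, Pecam1 and Emcn were followed in the fetal mouse testis. They are 8 of the 18193 genes that the array's annotation names alone on at least 1 probe set. They were chosen by name as the members to describe, with earlier results of these data known. Each gene is given by the probe set whose mean over all arrays is highest, and the further probe sets of Cdh5 and Flt1 serve as a check. Total RNA of male genital ridges and testes was hybridised to 12 Affymetrix whole-genome mouse arrays, with 2 arrays for each of 2 strains at each of 3 stages, named E13.5, then E15.5, then E17.5 for the embryonic day. The strains are 129/Sv (129) and 129.MOLF-Chr 19 (M19), a chromosome substitution strain that carries chromosome 19 of MOLF mice on the 129 background and whose males are prone to testicular germ cell tumours. The labels name no transgene and no treatment. The labels state that 40 pairs of testes were pooled for 2 arrays, so both arrays of a group may come from 1 pool, in which case the p-values reflect only technical spread. The study set the strains against each other at each stage, and successive stages against each other within a strain.

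Endothelial cells line the blood vessels, and in the XY gonad they enter from the neighbouring mesonephros and form the coelomic vessel and the vessels between the testis cords. Vascular endothelial growth factors act on them through the receptor kinases Kdr (VEGFR2), the main signalling receptor, and Flt1 (VEGFR1), which binds the ligand tightly and also exists as a soluble decoy. Angiopoietins act through Tek (Tie2), with Tie1 as its partner receptor. Cdh5 (VE-cadherin), Cldn5 and Pecam1 hold neighbouring endothelial cells together, and Emcn is a sialomucin of the surface of capillaries and veins.

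Levels are deposited array values, taken as log2 signal, so a difference of 1 is a factor of 2. The mean levels of the 8 genes all lay above 8.17, the median over all probe sets, from 8.78 for Tie1 to 10.91 for Kdr. Array medians ran from 8.10 to 8.27. Replicate 1 of 129 at E13.5 had an 18S rRNA control signal of 9.69, against 6.88 to 8.38 on the other arrays. Levels of different probe sets are not compared with each other. Whole organs were measured, so fewer endothelial cells and less RNA per endothelial cell cannot be told apart.

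The 8 genes did not move together. Over both strains, Emcn, Kdr, Cldn5 and Pecam1 fell from E13.5 to E15.5. Cdh5 rose from E15.5 to E17.5, and Flt1 rose over the whole span by 1 of its 4 probe sets. Tek and Tie1 passed no stage test. No gene of the 8 passed a strain test at any stage. Differences were tested with limma on all 12 arrays, with p-values adjusted by the Benjamini-Hochberg method over 45037 probe sets and a threshold of 0.05.

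**Figure D1:**
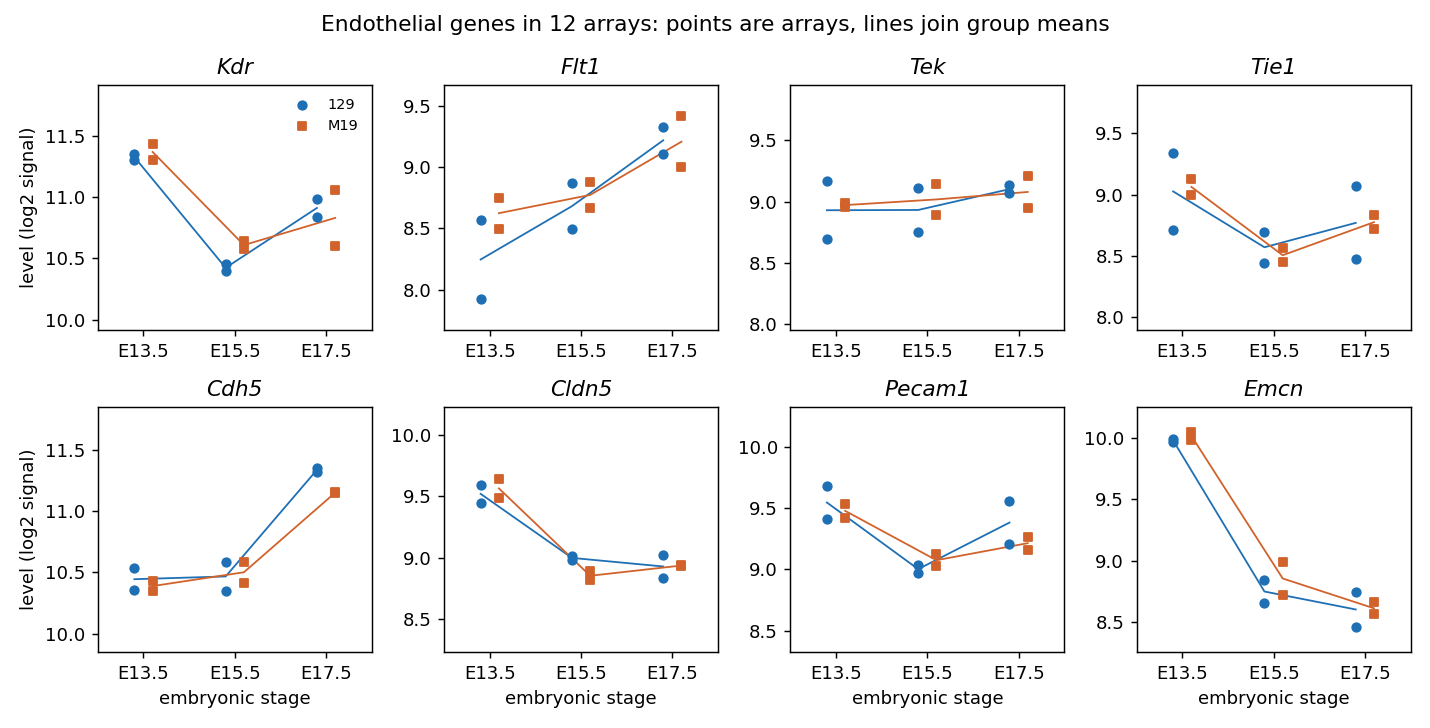
Level (log2 signal) of each of the 8 endothelial genes against embryonic stage, with 1 point per array, 2 arrays per strain and stage, and lines through the group means. Each panel spans 2 log2 units. Emcn lies at 9.97 to 10.05 at E13.5 and at 8.46 to 8.75 at E17.5, while Cdh5 lies at 11.14 to 11.35 at E17.5 against 10.34 to 10.59 before.

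Emcn had the largest change of the 8. Its levels at E13.5 were 9.97 and 9.99 in 129 and 10.05 and 9.99 in M19. At E15.5 they were 8.65 and 8.85 in 129 and 8.99 and 8.72 in M19. At E17.5 they were 8.46 and 8.75 in 129 and 8.56 and 8.66 in M19. All 4 arrays of E13.5 lay above all 8 later arrays, and the ranges of the later stages overlapped. Emcn fell by 1.20 ± 0.10 (SE, 4 arrays per stage) from E13.5 to E15.5, a factor of 2.29 (limma adjusted p = 1.5e-05). The next step was -0.19 ± 0.10 (adjusted p = 0.27), and over the span Emcn fell by 1.39 ± 0.10, a factor of 2.62 (adjusted p = 3.2e-06). The fall to E15.5 was -1.23 in 129 and -1.16 in M19.

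Kdr, the main VEGF receptor, was lowest at E15.5. It stood at 11.30 and 11.35 in 129 and at 11.43 and 11.30 in M19 at E13.5. At E15.5 it stood at 10.39 and 10.45 in 129 and at 10.58 and 10.64 in M19, below every E13.5 array. At E17.5 it stood at 10.98 and 10.84 in 129 and at 10.60 and 11.06 in M19, and that last group reached down into the E15.5 range. Kdr fell by 0.83 ± 0.10 to E15.5, a factor of 1.78 (limma adjusted p = 0.00037), and was 0.48 lower at E17.5 than at E13.5 (SE 0.10, adjusted p = 0.0077). The step from E15.5 to E17.5 was 0.35 ± 0.10, with an adjusted p of 0.071 that lay between 0.023 and 0.23 over the 12 fits that each leave out 1 array. Without replicate 1 of M19 at E17.5, the array at 10.60, the step was 0.47 with an adjusted p of 0.023.

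Cldn5, the main claudin of endothelial tight junctions, changed at the first step. It was at 9.60 and 9.45 in 129 and at 9.64 and 9.49 in M19 at E13.5. The 8 later arrays lay between 8.82 and 9.02. Cldn5 fell by 0.62 ± 0.08 to E15.5, a factor of 1.53 (limma adjusted p = 0.00057). The step to E17.5 was 0.01 ± 0.08, with a 95% interval of -0.17 to 0.19.

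Cdh5, which builds the adherens junction between endothelial cells, took another course. Its 8 arrays of E13.5 and E15.5 lay between 10.34 and 10.59. At E17.5 it was at 11.35 and 11.32 in 129 and at 11.14 and 11.15 in M19, above all earlier arrays. The step to E15.5 was 0.07 ± 0.09, with a 95% interval of -0.13 to 0.26. From E15.5 to E17.5 Cdh5 rose by 0.76 ± 0.09, a factor of 1.69 (limma adjusted p = 0.00065). Its dimmer probe set rose over the same step by 0.50 ± 0.09 (adjusted p = 0.0083).

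Pecam1, an adhesion molecule of endothelial junctions that fetal germ cells also carry, was at 9.68 and 9.41 in 129 and at 9.42 and 9.53 in M19 at E13.5. At E15.5 its 4 arrays lay between 8.97 and 9.12, below all E13.5 arrays, and at E17.5 between 9.16 and 9.56. Pecam1 fell by 0.47 ± 0.10 to E15.5, a factor of 1.39 (limma adjusted p = 0.012). Its call was lost when replicate 2 of M19 at E13.5 was left out (-0.44, adjusted p = 0.062), and likewise for replicate 2 of M19 at E15.5 (-0.45, adjusted p = 0.053). The step to E17.5 was 0.26 ± 0.10 (adjusted p = 0.16), and the E17.5 arrays lay above the E15.5 arrays without overlap. The mean level of 6 germ cell markers per array was 10.78 to 11.18 at E13.5, 11.63 to 12.09 at E15.5 and 10.73 to 10.90 at E17.5. At the first step Mael, Ddx4, Dnd1 and Pou5f1 rose by 2.96, 1.59, 1.31 and 0.39. Dppa3 fell by 0.47, and the remaining marker differed by -0.18. The part of germ cells in the Pecam1 values was not tested.

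Flt1 rose over the span. Its brightest probe set was at 7.92 and 8.57 in 129 and at 8.75 and 8.50 in M19 at E13.5, at 8.49 and 8.87 in 129 and at 8.88 and 8.67 in M19 at E15.5, and at 9.33 and 9.11 in 129 and at 9.00 and 9.41 in M19 at E17.5. All E17.5 arrays lay above all earlier arrays, and the ranges of the earlier stages overlapped. From E13.5 to E17.5 Flt1 rose by 0.78 ± 0.16, a factor of 1.71 (limma adjusted p = 0.0054). The steps were 0.29 ± 0.16 (adjusted p = 0.34) and 0.49 ± 0.16 (adjusted p = 0.10). Without replicate 1 of 129 at E13.5, the array at 7.92, the span was 0.62 (adjusted p = 0.010). The other 3 probe sets of Flt1 had span differences of 0.24, -0.04 and 0.08, with adjusted p-values of 0.071, 0.75 and 0.65, so the rise was measured by 1 of 4 probe sets. Which Flt1 transcripts each probe set reads was not analysed here.

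The angiopoietin receptor Tek ranged from 8.69 to 9.17 at E13.5, from 8.75 to 9.15 at E15.5 and from 8.95 to 9.21 at E17.5. These ranges overlapped at every pair of stages. Its span difference was 0.14 ± 0.13, with a 95% interval of -0.14 to 0.42 (limma adjusted p = 0.48). Tie1 ranged from 8.71 to 9.34 at E13.5, from 8.44 to 8.70 at E15.5 and from 8.47 to 9.07 at E17.5. All its E13.5 arrays lay above the E15.5 arrays. The step to E15.5 was -0.51 ± 0.16 (adjusted p = 0.067), and adjusted p-values over the alternatives ran from 0.013 to 0.20, with a value of -0.66 and the lowest p without replicate 1 of 129 at E13.5. On that array Tek, Tie1 and Flt1 were all the lowest of their stage, at 8.69, 8.71 and 7.92. Kdr and Emcn were also lowest there, at 11.30 and 9.97, and Pecam1 was highest, at 9.68. On replicate 1 of 129 at E15.5, Tek, Tie1 and Flt1 were again lowest, at 8.75, 8.44 and 8.49. So were Kdr, Emcn, Pecam1 and Cdh5, at 10.39, 8.65, 8.97 and 10.35, while Cldn5 was highest, at 9.01. These arrays had the highest and second highest 18S rRNA control signals, 9.69 and 8.38. At E17.5 Tek and Flt1 were lowest on replicate 1 of M19, at 8.95 and 9.00, where the 18S signal was 7.55. A relation to the 18S signal was not tested.

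Of the 8 genes, 4 were called lower from E13.5 to E15.5 and 0 higher, where 4.05% of all probe sets were called lower and 6.94% higher. From E15.5 to E17.5, Cdh5 alone was called, against 3.20% of probe sets called higher. Over the span 3 were called lower and 2 higher, where 10.3% and 12.2% of probe sets were called in these directions. Since the genes were chosen with earlier results of these data known, these shares are a description only. The median difference of the 8 genes was -0.49 for the first step, 0.25 for the second and -0.24 for the span, against medians of 0.01, 0.04 and 0.06 over all 18193 genes.

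**Figure D2:**
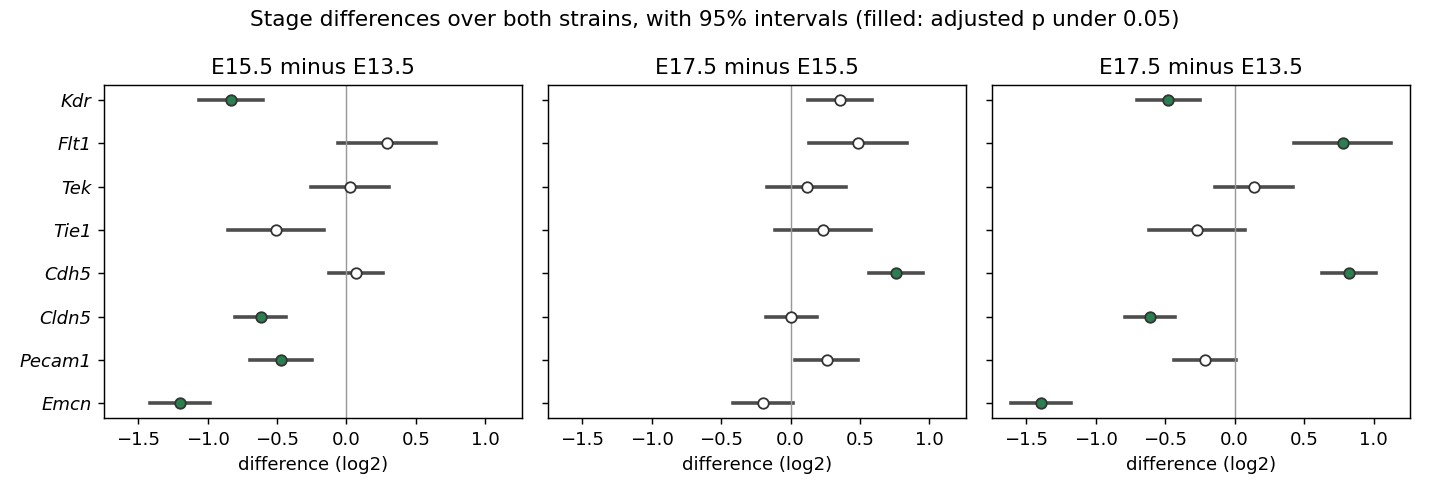
Difference between stages over both strains (log2) for each of the 8 endothelial genes, with 95% intervals from limma on 12 arrays. Filled points have an adjusted p under 0.05: Kdr, Cldn5, Pecam1 and Emcn are lower at E15.5 than at E13.5, and Cdh5 is higher at E17.5 than at E15.5.

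Within each strain, where a group is 2 arrays, 3 of the 8 genes were called lower at the first step (Kdr, Cldn5 and Emcn in both strains), against 1.52% of probe sets in 129 and 1.59% in M19. Cdh5 was called higher at the second step in both strains, against 0.833% and 0.988%. The Cldn5 call in 129 was lost in 7 of the 12 fits with an array left out (adjusted p up to 0.12), those without replicate 1 of 129 at E13.5 or without any of the other 6 arrays of M19 at E13.5, of 129 at E15.5 and of M19 at E15.5. The Cdh5 call in M19 was lost without any 1 of the 6 M19 arrays (adjusted p up to 0.15), and that in 129 without either 129 array of E17.5 (adjusted p up to 0.057). From E13.5 to E15.5 the differences in 129 and M19 were -0.90 and -0.76 for Kdr, -0.52 and -0.71 for Cldn5, -0.54 and -0.40 for Pecam1 and -0.46 and -0.56 for Tie1. From E15.5 to E17.5 those of Cdh5 were 0.87 and 0.65. Over the span those of Flt1 were 0.97 and 0.58. The span called 4 of the 8 genes in each strain, against 8.26% of probe sets in 129 and 12.3% in M19. Emcn, Cldn5 and Cdh5 were called in both, Flt1 in 129 and Kdr in M19. The Flt1 call in 129 was lost without replicate 1 of 129 at E13.5 (0.65, adjusted p = 0.099) and without replicate 1 (0.86, adjusted p = 0.16) or replicate 2 (1.08, adjusted p = 0.076) of 129 at E17.5. The Kdr call in M19 was lost in 7 of the 12 fits, those without any of the 4 M19 arrays of E13.5 and E15.5, either 129 array of E17.5 or replicate 1 of M19 at E17.5, with values from -0.60 to -0.31 and adjusted p-values up to 0.28. The Cldn5 call was lost in 129 without replicate 1 of E17.5 (adjusted p = 0.090) and in M19 without replicate 1 of E13.5 (adjusted p = 0.078). The strain by stage interaction, an F test of whether the strain effect differs between stages, called none of the 8 genes, with an unadjusted p under 0.05 for 0 of them and a smallest limma adjusted p of 1. It called 0.147% of probe sets.

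Across the 12 arrays, which share stage, the 8 genes formed no single pattern, as a description without a test. Pearson's r was 0.96 between Emcn and Cldn5, 0.81 between Kdr and Cldn5 and 0.79 between Kdr and Emcn. It was 0.82 between Cdh5 and Flt1 and 0.75 between Tek and Flt1. Between Emcn and Flt1 it was -0.67, and between Emcn and Cdh5 -0.62. The genes whose levels followed the mean of the 8 most closely were D430019H16Rik, Adgrf5, Kif21b, Mob3b, Plac8, Syk, Cnrip1, Zfp608, Plcb1 and Scamp1, with r from 0.94 to 0.96 over 12 arrays. Several of the 8 followed this mean weakly, with r of 0.02 for Flt1, 0.13 for Cdh5 and 0.34 for Tek, against 0.90 for Kdr. Adgrf5, an adhesion receptor, differed by -0.48 from E13.5 to E15.5 and by -0.12 over the span, and Plac8 by -1.22 and -0.37.

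The promoter windows of Emcn, Kdr and Cldn5, which fell at the first step, and of Flt1 are shown because these genes moved in opposite directions. Flt1 rose over the span by 1 of its 4 probe sets. RefSeq promoter windows on GRCm38.p6 were matched for 6 of the 8 genes, the 4 shown with Tek and Tie1. Each line gives the 250 bases before the start used for that window, on the strand of the gene. GGAAG or its reverse complement, the ETS core GGAA followed by G, is in capitals. A GGAA followed by another base is left in small letters. The windows are chr3:137340828-137341077 (plus strand) for Emcn, chr5:75978456-75978705 (minus strand) for Kdr, chr16:18776597-18776846 (plus strand) for Cldn5 and chr5:147726012-147726261 (minus strand) for Flt1. The Cldn5 window ends directly before the annotated gene, which starts at 18776847. The Emcn window runs past the start of its gene at 137341062. The Kdr and Flt1 windows lie inside their annotated genes, at chr5:75932827-75979072 and chr5:147561604-147726438. Their starts are therefore not the outer ends of these genes.
Emcn: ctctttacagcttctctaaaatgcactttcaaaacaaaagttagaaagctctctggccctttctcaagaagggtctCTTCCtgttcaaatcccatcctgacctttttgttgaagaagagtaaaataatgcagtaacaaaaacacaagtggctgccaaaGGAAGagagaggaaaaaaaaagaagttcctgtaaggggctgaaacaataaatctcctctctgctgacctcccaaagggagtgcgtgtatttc
Kdr: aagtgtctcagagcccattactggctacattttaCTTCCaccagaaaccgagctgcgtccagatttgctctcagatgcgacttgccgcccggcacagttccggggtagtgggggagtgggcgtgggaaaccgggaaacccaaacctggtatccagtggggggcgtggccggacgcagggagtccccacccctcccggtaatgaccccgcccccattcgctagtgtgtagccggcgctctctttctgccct
Cldn5: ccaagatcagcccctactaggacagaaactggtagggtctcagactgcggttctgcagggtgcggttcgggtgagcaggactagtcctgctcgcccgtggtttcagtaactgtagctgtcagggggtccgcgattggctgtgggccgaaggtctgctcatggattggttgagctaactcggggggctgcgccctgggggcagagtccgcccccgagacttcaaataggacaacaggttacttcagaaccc
Flt1: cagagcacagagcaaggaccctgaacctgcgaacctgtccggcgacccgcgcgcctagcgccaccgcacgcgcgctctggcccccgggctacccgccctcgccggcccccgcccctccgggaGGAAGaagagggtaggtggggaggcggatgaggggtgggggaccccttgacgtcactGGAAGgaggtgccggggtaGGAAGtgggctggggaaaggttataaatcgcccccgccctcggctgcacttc

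ETS factors are known regulators of endothelial genes, and GGAAG was common in all promoters. In windows of 300 bases, which add 50 bases from the start on, GGAAG on either strand was present in 4 of the 6 promoters (Kdr, Emcn, Tie1 and Flt1) and in 71.4% of all 32851 windows of that length. Tie1 had 7 matches, a count reached by 0.234% of windows, and Flt1 had 3, reached by 16.5%. The longer form CCGGAAG was in 0 of 6 and in 8.86% of all windows, and CAGGAAG was in Emcn and in 13.3%. AACAGGAA, a composite of FOX and ETS letters that overlaps CAGGAAG by 6 bases, was in Emcn alone, on the reverse strand from 173 bases before the start, and in 2.65% of all windows. The GATA forms TGATAA and AGATAA were in Emcn and in Tek, with 9.05% and 11.2% of all windows. TTGTTT (FOX) was in Emcn and Tek (20.7% of windows), ACAAAG (SOX) in Tek (18.7%), CACCC (KLF) in 5 of 6, all but Emcn (57.5%), and TATAAA in Flt1 (13.6%). A match describes the letters of the window only.

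No strain difference passed the test in the 8 genes. At E13.5 the M19 minus 129 differences ran from -0.07 for Pecam1 to 0.38 for Flt1, with a median of 0.04. The value for Flt1 was 0.06 without replicate 1 of 129 at E13.5. At E15.5 they ran from -0.15 for Cldn5 to 0.19 for Kdr, and at E17.5 from -0.19 for Cdh5 to 0.01 for Emcn. The called counts were 0 of 8 each time, with 0 at an unadjusted p under 0.05, and limma called 0.0511%, 0.573% and 0.0977% of probe sets at the 3 stages. In 3 of 24 gene and stage pairs the arrays of the strains did not overlap, 0 of 8 genes at E13.5, 2 at E15.5 and 1 at E17.5, where 26.0%, 35.9% and 24.1% of all probe sets did not overlap. Kdr was higher in M19 at E15.5 (10.58 and 10.64 against 10.39 and 10.45), Cldn5 lower at E15.5 (8.89 and 8.82 against 9.01 and 8.98) and Cdh5 lower at E17.5 (11.14 and 11.15 against 11.35 and 11.32). The 129 arrays of E15.5 also stood apart in skin, muscle and cartilage markers, with mean levels of 9.99 and 10.02 against 7.29 and 7.32 in M19, and the part of these in the Kdr and Cldn5 values was not tested. The differences of 0.19, -0.15 and -0.19 had limma adjusted p-values of 0.89, 0.89 and 1.

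The intervals rest on a spread estimated from all 12 arrays, with 2 arrays per group. If both arrays of a group came from 1 pool, they reflect only technical spread. The 95% interval of the strain difference at E17.5 was -0.46 to 0.09 for Cdh5, and at E15.5 it was -0.14 to 0.51 for Kdr. The widest were those of Flt1, such as -0.12 to 0.88 at E13.5. Averaged over the 3 stages, 6 arrays against 6, the differences ran from -0.07 to 0.15 and all intervals lay between -0.29 and 0.44, with 0 of 8 genes called, where 0.420% of probe sets were. None of the 8 genes lies on chromosome 19. Emcn lies on chromosome 3, Tek and Tie1 on 4, Kdr and Flt1 on 5, Cdh5 on 8, Pecam1 on 11 and Cldn5 on 16.

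**Figure D3:**
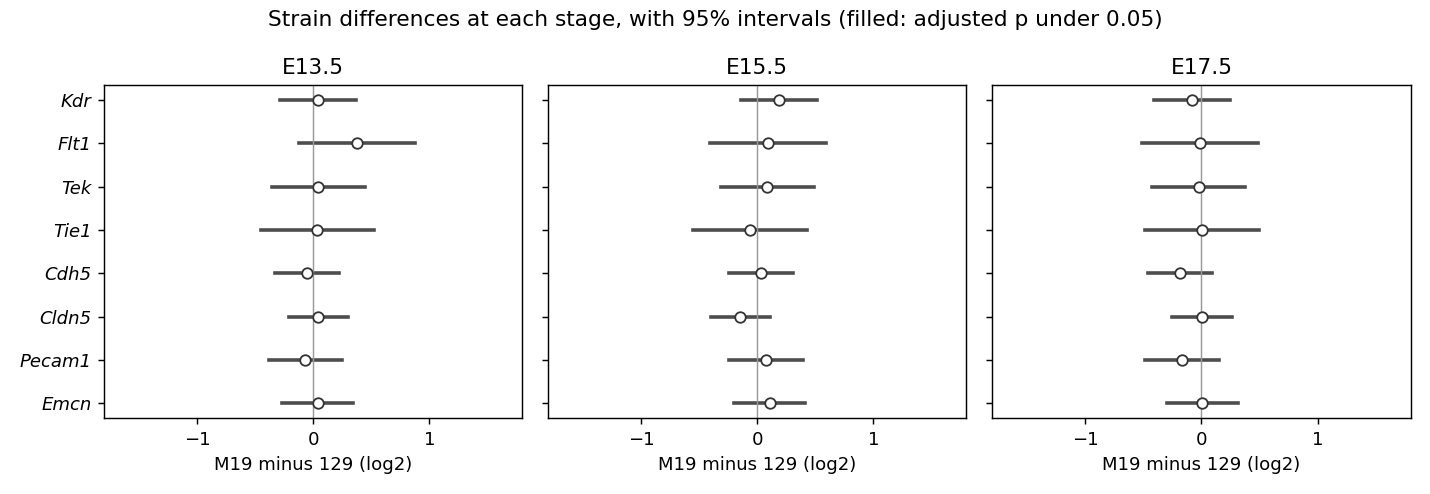
M19 minus 129 (log2) at each stage for the 8 endothelial genes, with 95% intervals from limma on 12 arrays. All points are open, since no adjusted p was under 0.05, and the largest difference is 0.38 for Flt1 at E13.5.

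Of 7 ligand genes, 1 fell and 0 rose from E13.5 to E15.5, where 4.05% of all probe sets were called lower and 6.94% higher. Vegfc, a ligand of the lymphatic and venous receptor Flt4 that also binds Kdr, fell from a mean of 8.36 to 7.67, by 0.68 ± 0.11 (limma adjusted p = 0.0019). The further probe sets of Vegfc gave -0.80 and -0.72. There were 2 lower ligands without replicate 1 of 129 at E13.5 or replicate 2 of 129 at E15.5. The list's median difference was -0.02 at the first step. Over the span, in which 12.2% of probe sets were called higher and 10.3% lower, Vegfb rose by 0.31 ± 0.09 (limma adjusted p = 0.038). Vegfc fell by 0.45 ± 0.11 (adjusted p = 0.013). Of 6 co-receptors and related receptors, Pdgfra rose over the span by 0.56 ± 0.10 (adjusted p = 0.0025). Kit fell by 0.62 ± 0.15 (adjusted p = 0.015). From E13.5 to E15.5, 2 of these 6 fell and 0 rose. Kit, the receptor of stem cell factor that is also carried by germ cells and Leydig cells, fell by 0.91 ± 0.15 (adjusted p = 0.0028). Nrp1, a co-receptor that presents VEGF to Kdr, fell by 0.59 ± 0.14 (adjusted p = 0.019), and 1 gene was left without replicate 2 of M19 at E13.5, replicate 1 of 129 at E15.5 or replicate 2 of M19 at E15.5.

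Other endothelial genes split in direction. Of 30 measured, all above the median level of probe sets, 6 fell and 1 rose from E13.5 to E15.5, with a median difference of -0.14. At that step 4.05% of all probe sets were called lower and 6.94% higher. Over the span 7 fell and 5 rose, with a median of -0.05, where 10.3% and 12.2% of probe sets were called in these directions. The count of 5 was 8 without replicate 1 of 129 at E13.5, 2 when replicate 2 of M19 at E13.5 was left out, and 3 without replicate 1 of M19 at E13.5, replicate 2 of 129 at E17.5 or replicate 1 of M19 at E17.5. Vwf, the clotting factor that endothelial cells store, rose from 7.96 at E13.5 to 10.35 at E15.5, by 2.40 ± 0.09 (limma adjusted p = 6.8e-08), and was at 9.92 at E17.5. Cd34, a sialomucin of vascular endothelium and progenitors, rose from 9.64 at E15.5 to 10.30 at E17.5, by 0.66 ± 0.09 (adjusted p = 0.0019).

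Gata2, a transcription factor of endothelial and blood progenitors, fell from 11.43 to 8.68 at the first step, by 2.75 ± 0.13 (limma adjusted p = 2.2e-07), and the second Gata2 probe set gave -2.79. Plvap, which forms the diaphragms of fenestrated endothelium, was at 9.61, 9.13 and 8.84 at the successive stages. Over the span Plvap fell by 0.77 ± 0.08 (adjusted p = 6.3e-05). Sox7, an endothelial SOX factor, fell over the span by 0.54 ± 0.13 (adjusted p = 0.011), and its dim second probe set differed by -0.01.

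Arterial and venous genes moved in both directions over the span, in which 10.3% of all probe sets were called lower and 12.2% higher. Of 13 arterial genes, 2 fell and 1 rose, a share close to these, with a median of 0.05, and 2 rose without replicate 1 of 129 at E13.5 or replicate 1 of M19 at E17.5. Efnb2, the arterial ephrin ligand, fell by 1.40 ± 0.11 (limma adjusted p = 7.9e-06), and 3 further probe sets differed by -1.12, -0.23 and -0.75. Unc5b, a netrin receptor of arteries and vessel tips, fell by 0.42 ± 0.08 (adjusted p = 0.0041), and Acvrl1, a BMP receptor of arterial endothelium, rose by 0.81 ± 0.08 (adjusted p = 6.4e-05). Some of the 13 arterial genes had mean levels below 8.17, the median over all probe sets, with the lowest at 6.79. Of 8 venous and lymphatic genes, 2 fell and 2 rose over the span, with a median of -0.06. Stab2 had the lowest mean level of these, 7.64. Aplnr, the apelin receptor of veins and growing vessels, fell by 0.93 ± 0.12 (adjusted p = 0.00025) and Ephb4, the venous receptor of Efnb2, by 0.50 ± 0.10 (adjusted p = 0.0059). Pdpn, a membrane protein of lymphatic endothelium that other cells also carry, rose by 0.74 ± 0.10 (adjusted p = 0.00034) and the scavenger receptor Stab2 by 0.40 ± 0.08 (adjusted p = 0.0063).

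**Figure D4:**
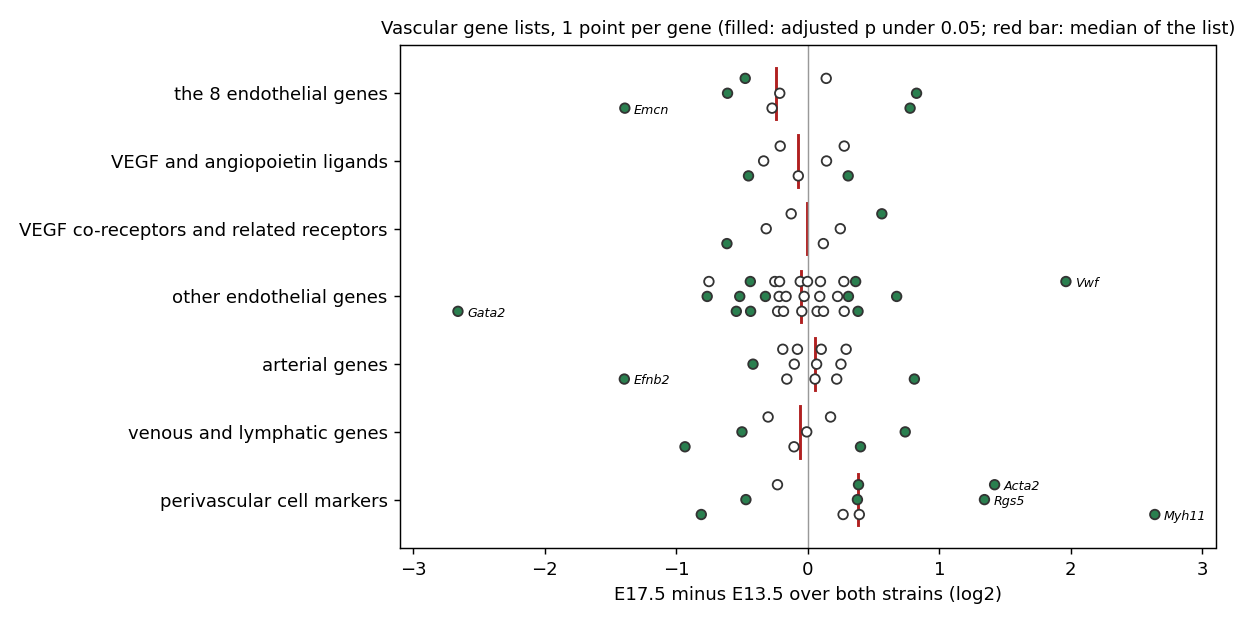
E17.5 minus E13.5 over both strains (log2), 1 point per gene, for the 8 endothelial genes and 6 lists, with the median of each list as a red bar and filled points for an adjusted p under 0.05. Genes beyond 1 log2 unit are named: Vwf at 1.96 and Gata2 at -2.66 are the outermost endothelial genes.

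Of 10 perivascular markers, which pericytes and smooth muscle share, 5 rose and 2 fell over the span, with a median of 0.38. Of all probe sets, 12.2% were called higher and 10.3% lower over the span. Myh11, a smooth muscle myosin that peritubular cells also carry, rose by 2.64 (SE 0.10, limma adjusted p = 3e-08), and Rgs5, a pericyte marker, by 1.34. Kcnj8, a pericyte potassium channel subunit, fell by 0.93 ± 0.11 from E13.5 to E15.5 (adjusted p = 0.00021). The mean level of the list per array was 9.86 to 10.01 at E13.5 and 10.34 to 10.51 at E17.5.

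Marker levels of some other cell types changed beside the endothelial genes. The mean level of the 8 genes per array was 9.53 to 9.73 at E13.5, 9.13 to 9.34 at E15.5 and 9.40 to 9.59 at E17.5. Macrophage markers, with 3 of 12 lower and 0 higher at the first step, were at 8.52 to 8.68, 8.28 to 8.48 and 8.50 to 8.55. At that step 4.05% of all probe sets were called lower and 6.94% higher. Red blood cell markers stood at 9.51 to 9.62 at E13.5 and at 7.95 to 7.99 at E17.5. Over the span 3 of 8 were lower and 1 higher, where 10.3% and 12.2% of all probe sets were called in these directions. The embryonic globins Hbb-y and Hba-x had span differences of -8.00 and -5.65, against -0.81 to 1.55 for the other 6 genes of that list. Platelet markers lay between 7.87 and 8.09. The 6 mesonephros and duct markers had array means of 8.42 to 8.73, 7.88 to 8.37 and 7.79 to 7.97 at the successive stages. At the first step Cdh16 fell by 1.98 and Emx2 by 1.01, and Hoxd13 rose by 1.18. At E15.5 Hoxd13 was at 9.08 in 129 and 6.71 in M19. The rest of this list differed by -0.39 to 0.07 at the first step. Fetal Leydig cell markers were higher at E15.5 in 5 of 5, against 6.94% of all probe sets. Their array means were 10.85 to 11.17 before and 12.36 to 12.56 after. Proliferation genes were lower over the span in 8 of 9, against 10.3% of all probe sets. None of these marker genes stood at 0 on any array. Their part in the endothelial values was not tested.

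Both 129 arrays of E15.5 held skin, muscle and cartilage genes, at a mean level of 9.99 and 10.02, against 7.29 to 7.78 on the other 10 arrays. In M19 8 of 10 of these markers were lower at that stage, where 0.573% of all probe sets were called in either direction. In M19, whose E15.5 arrays stood at 7.29 and 7.32, Emcn, Kdr and Cldn5 fell at the first step by 1.16, 0.76 and 0.71 (limma adjusted p = 0.00051, 0.011 and 0.0040). Pecam1, the other gene called lower over both strains, differed by -0.40 in M19 and was not called (adjusted p = 0.17). For Kdr the M19 call was lost when any 1 of the 4 M19 arrays of these stages was left out, with adjusted p-values up to 0.13, and for Cldn5 without replicate 1 of M19 at E13.5 (0.075).

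**Figure D5:**
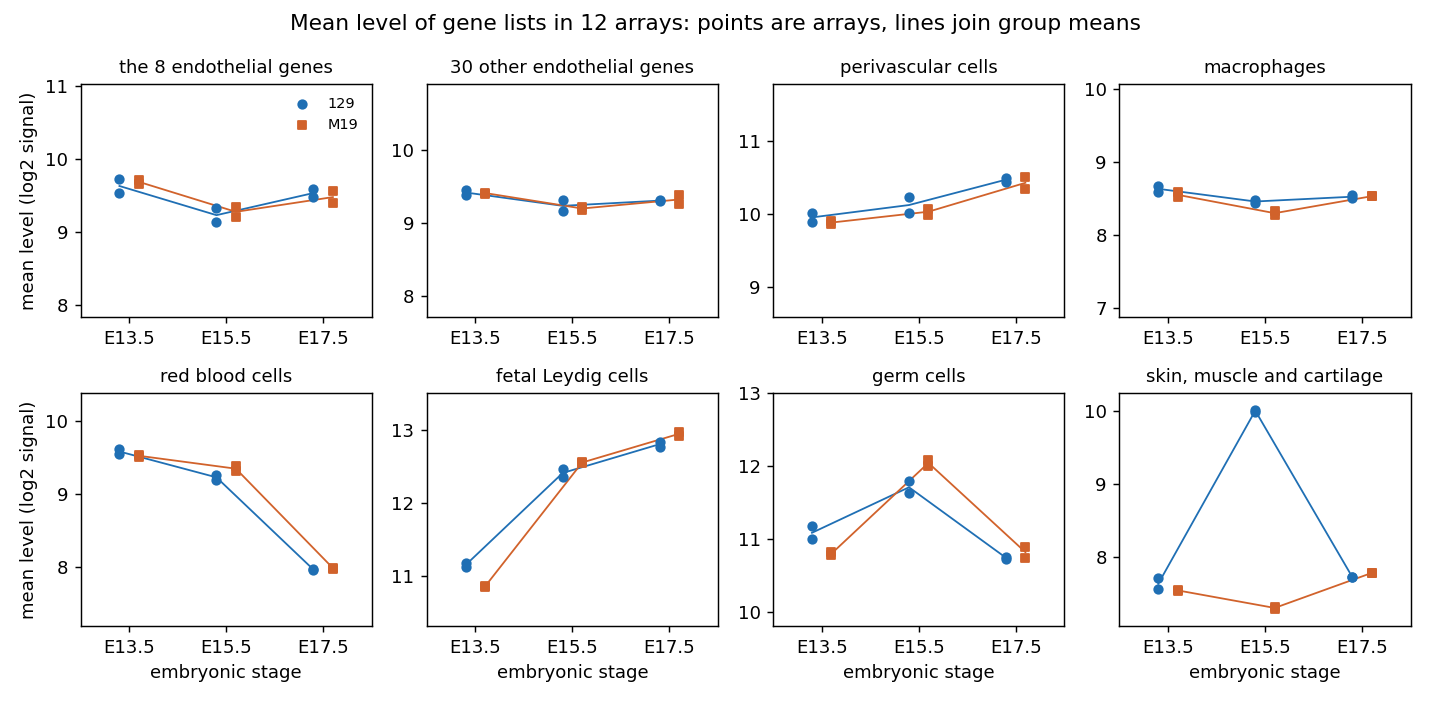
Mean level (log2 signal) of the 8 endothelial genes and of 7 marker lists against stage, with 1 point per array and lines through group means. Each panel spans 3.2 log2 units. The skin, muscle and cartilage list is high on both 129 arrays of E15.5 alone, and the endothelial means are lowest at E15.5 in both strains.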

How the data were processed

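Total RNA of 12 samples was measured on Affymetrix whole-genome mouse arrays, and the deposited values were taken as log2 signal, per the labels and the range of the values. The log base, the summary method and the normalization are not given in the sources used here. Of 45101 probe sets, 64 controls were left out, and 34945 of the others name 1 gene in the platform annotation. Tests used limma 3.58.1 in R 4.3.3, with a model of 6 group means on all 12 arrays, 6 residual and 4.82 prior degrees of freedom, two-sided p-values and Benjamini-Hochberg adjustment over 45037 probe sets. Figures and summaries used Python 3.11.15, pandas 2.3.3 and matplotlib 3.10.9. Precision is limited by the number of arrays. The members and gene lists were chosen with earlier results of these data known. All 8 members are named. Of each other list, genes called in a comparison may be named, at most the 3 with the largest difference in each direction. The calculation was tested on simulated data. Alternatives changed the scaling, filter, variance model, probe set rule, replicate block, minimum difference and arrays used.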

Additional observations from a re-analysis of the deposited data

How the results depend on the processing

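No difference that passed the test changed sign under the alternatives tried. The count of the 8 genes called from E15.5 to E17.5 over both strains was 1, and 2 with quantile normalization, a filter on dim probe sets, a variance trend with robust fitting or each gene taken as the mean of its probe sets. When only the arrays of the groups compared were fitted, the count for E13.5 to E15.5 was 1 in 129 and 5 in M19 (3 in each otherwise), and that for the span in 129 was 2 (4 otherwise). With 1 array left out, the counts ran from 1 to 2 for the second step over both strains, 0 to 1 for it in either strain, 1 to 3 for the first step in M19, 2 to 5 for the span in M19 and 2 to 4 for the span in 129. The arrays whose removal ended the Cdh5 call within M19 were replicates 1 and 2 at each of the 3 stages of M19, and within 129 both E17.5 arrays. Where a group was left with 1 array, it was assumed to vary like the others. Replicate numbers did not pair the samples throughout: the correlation of deviations was above 0.1 in 6 of 15 group pairs, below 0 in 7, and ran from -0.37 to 0.54. The highest values were those of 129 at E15.5 with 129 at E13.5 and with M19 at E17.5 (0.54 each). That of 129 at E13.5 with M19 at E17.5 was 0.51, so these arrays shared deviations. With the replicate number as a block, 5 of the 8 genes were called for the first step over both strains instead of 4, and 5010 probe sets instead of 4950. The fit on only the compared arrays was not run for the mean strain difference and the interaction, and the fit without the E15.5 arrays was run only for comparisons that do not use them. The causes of these changes were not tested.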
